A study of Mus musculus with 13 samples.

Results

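Neutrophils are short-lived white blood cells that leave the blood for injured tissue and carry proteins in granules made at successive stages of their growth in bone marrow. Primary granules are made first, in promyelocytes, and hold myeloperoxidase and serine proteases. Secondary, or specific, granules follow and hold antimicrobial proteins such as cathelicidin. Mature neutrophils have largely stopped transcribing both sets, but keep transcribing surface receptors and a number of secreted proteins.

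The genes described here are 9 genes of neutrophils and other myeloid cells, taken by symbol from the 20270 genes of the tables: *Csf3r*, *Il1r2*, *Trem1*, *Retnlg*, *Ngp*, *Camp*, *Elane*, *Mpo* and *Prtn3*. All 9 were found. Lung RNA was sequenced in 13 libraries, each taken here as 1 mouse. The study asked how the lung transcriptome changes in bleomycin-induced pulmonary fibrosis and whether deletion of the cannabinoid receptor CB1R alters that change. The 4 control mice were wildtype by their labels and received sterile saline as vehicle. The 5 wildtype (WT) bleomycin mice were given bleomycin through the oropharynx in a single dose (1 U per kg) and were taken at day 14. The 4 CB1R KO bleomycin mice carried *Cnr1*-/- in all tissues, on a C57Bl/6J background, and received the same dose and were taken at the same day. The purchased C57BL/6J mice were males of 13 weeks, and no age was stated for the knockouts. The RNA came from the lower right lobe, so each value is a mean over all cells of that lobe. Knockouts given no bleomycin are outside these comparisons. CB1R KO bleomycin against control therefore differs in both genotype and bleomycin. The numbers in the labels name the libraries. Control libraries are 3, 21, 24 and 26, WT bleomycin libraries are 4, 2, 5, 4-B2 and 7, and CB1R KO bleomycin libraries are 8, 9, 10 and 11. WT bleomycin 4 and 4-B2 share a number, and what B2 stands for was not given in the sources used here. They are treated as separate mice.

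Of the 13 libraries, 12 held 14615904 to 16662580 estimated counts and CB1R KO replicate 11 held 53463884. *Cnr1* was counted in all 13 libraries, at 1.62 to 4.10 CPM (counts scaled to library size) in controls, 3.46 to 6.97 in WT bleomycin and 2.47 to 5.63 in the libraries labelled CB1R KO, so its counts do not check the genotype. Of the lung markers listed, *Scgb1a1* of club cells averaged 17200 CPM and *Sftpc* of type II cells 11827 CPM in controls. Labels of control 26, WT 4-B2 and WT 7 are written in capitals and those of the other 10 libraries are not. What this style stands for was not given in the sources used here, and all CB1R KO libraries have lower-case labels.

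The sequences just before the start of these genes are shown first, because granule genes are known targets of the myeloid factors PU.1 and the C/EBP family. RefSeq promoters (GRCm38.p6, an earlier build than that of the counts) were found for 9 of 9 members, and the 250 bases upstream of each start were searched on both strands. The letters GAGGAA, a PU.1-type motif, were in 23.3% of the 32851 promoters of the table and in 5 of the 9 members. In *Csf3r*, *Elane* and *Prtn3* they lay 86 to 81, 85 to 80 and 95 to 90 bases upstream of the start. Windows of 30 bases are printed 5′ to 3′ on the strand of the gene, with the match in capitals.

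*Csf3r* chr4:126024561-126024590, plus strand: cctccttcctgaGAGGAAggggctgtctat

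*Elane* chr10:79886215-79886244, plus strand: tcgtgtcccaggGAGGAAgtagggctgtgg

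*Prtn3* chr10:79879560-79879589, plus strand: ccaaactggaagGAGGAAgtgggacccaca

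*Mpo* chr11:87793548-87793577, plus strand: tgtggagagagaGAGGAAgttgcctttgtc

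*Trem1* chr17:48232565-48232594, plus strand: attttcagagaaGAGGAAactgaggtccca

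The letters TTNNGNAA, a C/EBP-type motif that does not overlap the first in any of these promoters, were in 36.8% of all promoters and in 3 of the 9 members: *Retnlg*, *Trem1* and *Ngp*. *Ngp* held 3 matches, of which the pair shown lies 102 to 95 and 11 to 4 bases upstream, the first of them on the opposite strand. A match is only a run of letters and no binding was measured.

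*Ngp* chr9:110419695-110419724, plus strand: ggccaacagtgTTTCATAAcattggctaat

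*Ngp* chr9:110419778-110419807, plus strand: tttatgtcaccggcagttcTTGGGCAAggc

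Levels of the 9 genes differed widely, and the primary granule genes were the lowest. On the TPM scale, which corrects for transcript length, *Retnlg* had the highest mean level over the 13 libraries (62.5) and *Csf3r* followed (29.6). *Il1r2* (3.61), *Trem1* (3.49) and *Ngp* (2.40) came next, and their ranges over libraries overlapped. *Camp* averaged 0.916 TPM. The 3 primary granule genes were lowest, *Prtn3* at 0.470, *Mpo* at 0.239 and *Elane* at 0.0953 TPM. Of the 9 members, 5 had enough counts for the fit across all genes and 4 did not (*Camp*, *Elane*, *Mpo* and *Prtn3*). A lower value in such bulk tissue can come from fewer cells of a type or from less RNA per cell, and these cannot be told apart here.

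In WT bleomycin lungs against controls, 2 of the 5 members tested were lower and 0 were higher, at an adjusted p under 0.05 in edgeR's quasi-likelihood test. Over all 15315 genes tested, 23.9% were called lower and 25.0% higher in this comparison. The median log2 fold change was -0.57 for the 5 members and -0.01 for all genes. In CB1R KO bleomycin lungs against controls, 2 of 5 members were lower and 0 higher, beside 16.3% and 19.0% of all genes. The 5 members had a median log2 fold change of -0.74 there, and all genes of -0.01. Between CB1R KO and WT bleomycin lungs 0 of 5 members were called, beside 0.359% of all genes higher and 0.620% lower. DESeq2 on all libraries and on the 2 groups also called 0 members in that comparison, and 1 member had an unadjusted p under 0.05 in edgeR. The comparisons share libraries: both bleomycin groups were set against the same 4 controls.

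**Figure D1:**
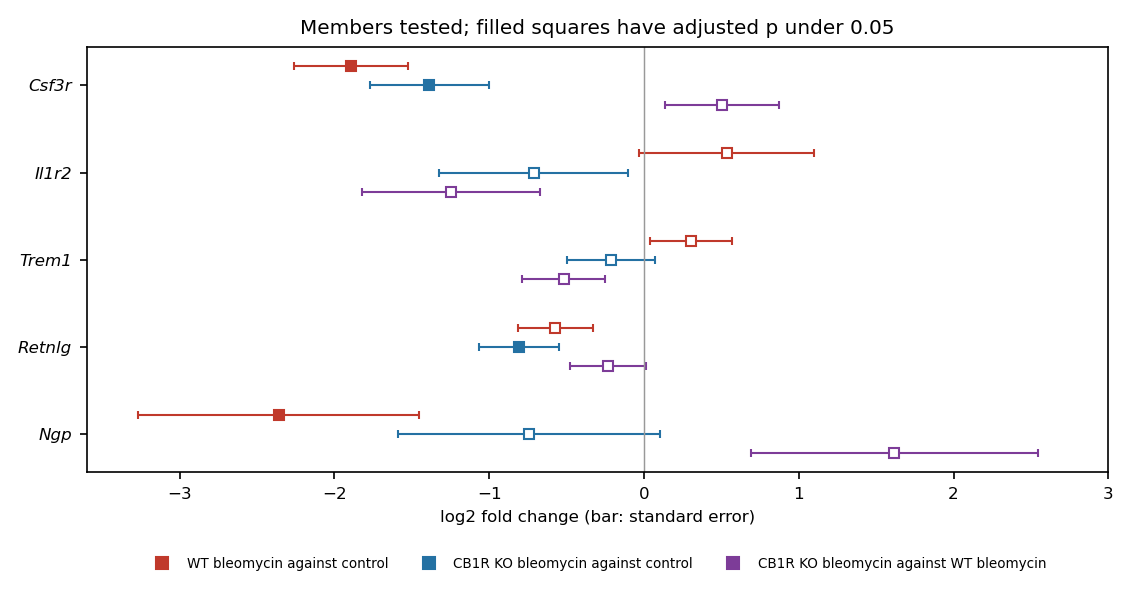
Log2 fold change (horizontal axis) of the 5 members that could be tested, in 3 comparisons shown by colour, with bars of 1 standard error from edgeR. Filled squares passed an adjusted p of 0.05: *Csf3r* was lower in both bleomycin groups against control, *Ngp* in WT bleomycin and *Retnlg* in CB1R KO bleomycin, and no square is filled for CB1R KO against WT bleomycin.

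*Csf3r* is the receptor for granulocyte colony-stimulating factor, which drives the growth and release of neutrophils. It stood at 201, 59.0, 51.7 and 170 CPM in control libraries 3, 21, 24 and 26. WT bleomycin libraries 4, 2, 5, 4-B2 and 7 had 44.0, 27.6, 27.0, 26.6 and 36.9 CPM. CB1R KO bleomycin libraries 8, 9, 10 and 11 had 53.05, 64.7, 37.3 and 30.4 CPM. Every WT bleomycin library lay below every control library, whereas CB1R KO libraries 8 and 9 overlapped the lower pair of controls. The controls were themselves split, with libraries 3 and 26 well above 21 and 24.

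*Csf3r* of WT bleomycin lungs was 3.71-fold below that of controls (log2 fold change -1.89, SE 0.37, adjusted p = 0.000658). CB1R KO bleomycin lungs were 2.62-fold lower than controls (-1.39, SE 0.38, adjusted p = 0.0121). The log2 difference between CB1R KO and WT bleomycin was 0.51 (SE 0.37, adjusted p = 0.512) and was not called. The WT decrease passed the threshold in 25 of 25 alternatives, from -2.14 to -1.53 on the log2 scale, and was smallest without control 3. The call in CB1R KO lungs was lost with limma on log2 TPM (adjusted p = 0.0527 and 0.0639) and with only the lower-case libraries (adjusted p = 0.0580).

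*Il1r2* is the decoy receptor for interleukin 1, which binds the cytokine without signalling. Its CPM was 2.56, 0.841, 1.15 and 5.99 in controls 3, 21, 24 and 26, and 1.84, 2.84, 2.37, 6.09 and 5.92 in WT bleomycin 4, 2, 5, 4-B2 and 7. CB1R KO libraries 8, 9, 10 and 11 had 0.392, 2.65, 1.24 and 1.96 CPM. The 3 libraries with capital labels were the highest of all 13, at 5.92 to 6.09 CPM, and the other 10 reached 2.84 at most. A coefficient for label style, chosen after the values were seen and fitted beside the groups, was 1.60 on the log2 scale (SE 0.39, unadjusted p = 0.00127, adjusted p = 0.227). By that test 9 of 15315 genes were called (0.0588%), and *Il1r2* was not among them.

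*Il1r2* did not pass the threshold in any of the 3 comparisons. The log2 fold change was 0.53 (SE 0.56, adjusted p = 0.457, and 0.24 to 1.31 with 1 library left out, the highest without control 26) for WT bleomycin against control and -0.71 (SE 0.61, adjusted p = 0.386) for CB1R KO bleomycin against control. Between CB1R KO and WT bleomycin it was -1.25 (SE 0.58, unadjusted p = 0.0480, adjusted p = 0.289). With label style as a term that difference was -0.45, and with only the lower-case libraries it was -0.56. The part of label style in the difference cannot be told apart from the mice that carry it.

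*Trem1* is a surface receptor of neutrophils and monocytes that signals through the adaptor *Tyrobp* and amplifies inflammation. It had 7.61, 4.09, 4.61 and 8.63 CPM in controls 3, 21, 24 and 26 and 8.11, 5.68, 5.56, 12.6 and 6.60 in WT bleomycin 4, 2, 5, 4-B2 and 7. CB1R KO libraries 8, 9, 10 and 11 had 4.97, 6.15, 5.96 and 4.54 CPM. All 3 groups overlapped, and the highest value was that of WT 4-B2, a capital-label library. The log2 fold changes were 0.30 (SE 0.27, adjusted p = 0.369) for WT bleomycin against control and -0.21 (SE 0.28, adjusted p = 0.586) for CB1R KO bleomycin against control. Between CB1R KO and WT bleomycin the difference was -0.52 (SE 0.27, adjusted p = 0.346). The coefficient of *Trem1* for label style was 0.61 (SE 0.23, adjusted p = 0.431).

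**Figure D2:**
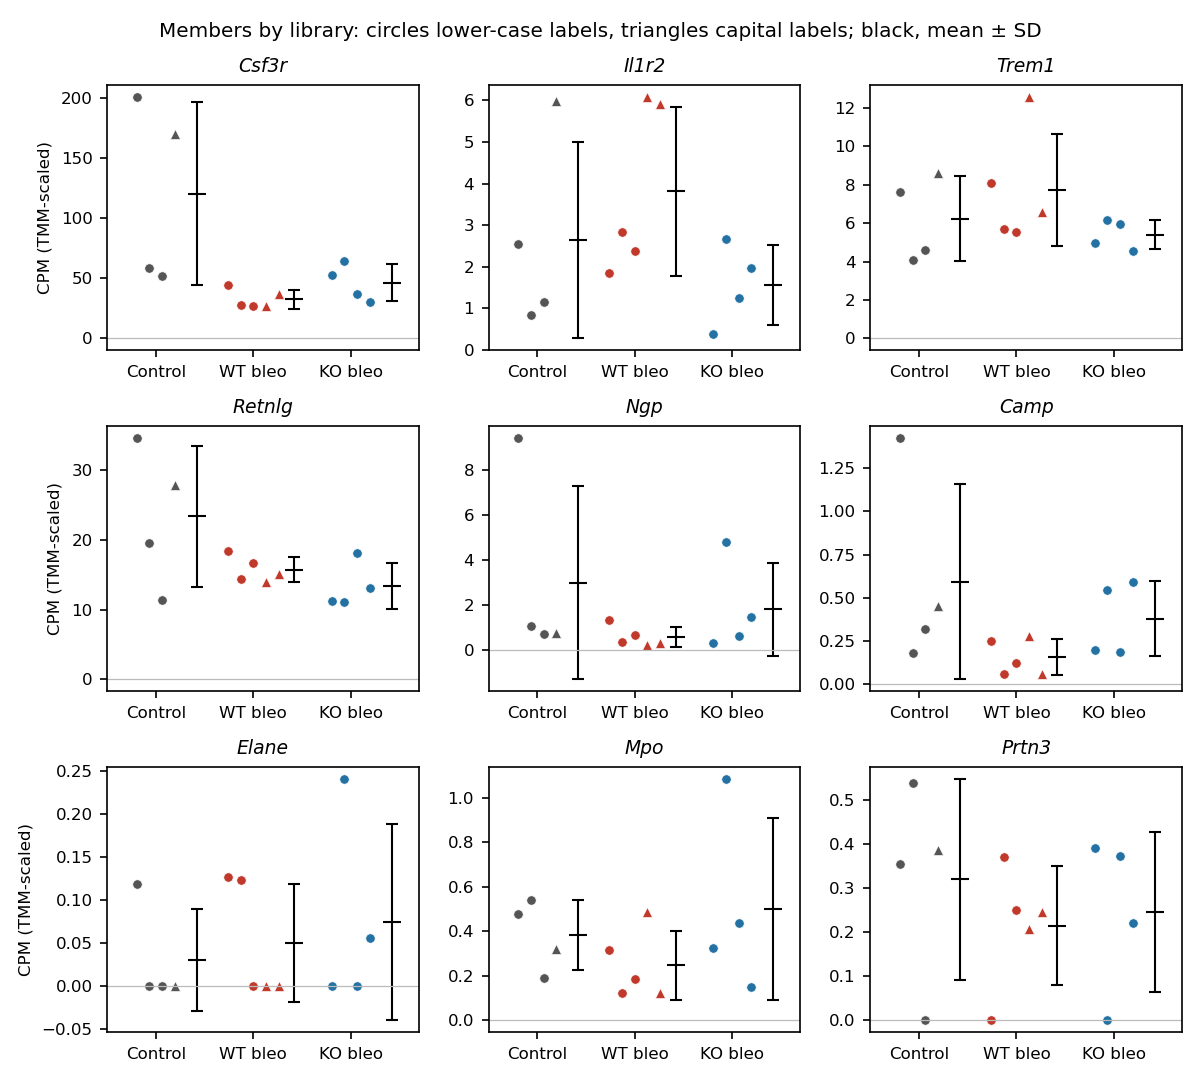
TMM-scaled CPM (vertical axis, linear, a scale of its own in each panel) of the 9 members in each library by group, with triangles for capital and circles for lower-case labels and black bars for the group mean ± SD. *Csf3r* of every WT bleomycin library is below every control, the 3 triangles of *Il1r2* are at 5.92 to 6.09 CPM above all circles, and *Elane*, *Mpo* and *Prtn3* stay at 1.09 CPM or less.

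*Retnlg* encodes a resistin-like secreted protein of mouse neutrophils. Control libraries 3, 21, 24 and 26 had 34.7, 19.6, 11.4 and 27.9 CPM. WT bleomycin libraries ranged from 14.0 to 18.4 CPM (mean 15.7 ± 1.82 SD, n = 5), and CB1R KO libraries 8, 9, 10 and 11 had 11.2, 11.2, 18.1 and 13.1. All groups overlapped because control 24 lay as low as the CB1R KO libraries, while controls 3, 26 and 21 were the highest libraries of all.

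*Retnlg* was 1.75-fold below controls in CB1R KO bleomycin lungs (log2 fold change -0.80, SE 0.26, adjusted p = 0.0254). WT bleomycin against control gave -0.57 (SE 0.24, adjusted p = 0.0645), and CB1R KO against WT bleomycin -0.23 (SE 0.25, adjusted p = 0.674). The CB1R KO call rests on single libraries. It was lost without control 3 (-0.55, adjusted p = 0.0964), control 26 (-0.71, 0.0675), CB1R KO 8 (-0.73, 0.0618), CB1R KO 9 (-0.72, 0.0622) or CB1R KO 11 (-0.79, 0.0609). The WT bleomycin difference was called without control 24 (-0.80, adjusted p = 0.00355) and with DESeq2 on all libraries (adjusted p = 0.0442) and on the 2 groups (0.0489), and was -0.32 without control 3 (adjusted p = 0.280).

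*Ngp* encodes neutrophilic granule protein, a cystatin-like protein of specific granules. Control 3 had 9.45 CPM and controls 21, 24 and 26 had 1.08, 0.704 and 0.773. WT bleomycin libraries 4, 2, 5, 4-B2 and 7 had 1.33, 0.371, 0.687, 0.208 and 0.309 CPM. CB1R KO 9 had 4.82 CPM, and CB1R KO 8, 10 and 11 had 0.327, 0.621 and 1.48. Control 3 and CB1R KO 9 thus stood apart from the other 11 libraries, which overlapped between groups.

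*Ngp* of WT bleomycin lungs was below that of controls (log2 fold change -2.36, SE 0.91, adjusted p = 0.0435). Without control 3 the difference was -0.54 (adjusted p = 0.602), so that 1 library decides this call. It was also lost without WT bleomycin 2 (-2.23, adjusted p = 0.0847), 5 (-2.42, 0.0700), 4-B2 (-2.15, 0.0892) or 7 (-2.19, 0.0866), or without CB1R KO 11 (-2.35, 0.0528). CB1R KO bleomycin against control gave -0.74 (SE 0.85, adjusted p = 0.527), which became 1.07 without control 3. CB1R KO against WT bleomycin gave 1.62 (SE 0.93, adjusted p = 0.396), and 0.62 without CB1R KO 9.

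*Camp* encodes cathelicidin, an antimicrobial peptide of specific granules, and lies on chromosome 9 like *Ngp*, with 8 protein-coding genes between them. It was counted 24, 3, 5 and 7 times in controls 3, 21, 24 and 26, 4, 1, 2, 4 and 1 times in WT bleomycin 4, 2, 5, 4-B2 and 7, and 3, 9, 3 and 32 times in CB1R KO 8, 9, 10 and 11, the last of which was the deepest library. Control 3 was the highest after scaling, at 1.43 CPM. Pooled over libraries, control lungs had 0.601 CPM without TMM scaling (95% exact Poisson interval 0.428 to 0.822), WT bleomycin 0.152 (0.0787 to 0.266) and CB1R KO bleomycin 0.464 (0.341 to 0.617). These intervals cover counting error only. Between mice, the difference in mean log2 CPM was -1.21 for WT bleomycin against control (two-sided exact permutation p = 0.0556) and 0.86 for CB1R KO against WT bleomycin (exact permutation p = 0.0952). Over the 12 permutation tests of low members the smallest adjusted p was 0.571. The smallest p these tests can give is 0.00794 for 4 against 5 mice and 0.0286 for 4 against 4. *Camp* was called lower in WT bleomycin by edgeR without the count filter (adjusted p = 0.0335) and by DESeq2 on all libraries (0.0321) and on the 2 groups (0.0443).

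The primary granule genes were close to the limit of detection in all groups. *Elane*, neutrophil elastase, had 13 counts in all 13 libraries together, or 0.0531 CPM (95% exact Poisson interval 0.0283 to 0.0908), and none in 8 libraries, where a count of 0 allows up to 0.205 CPM (3 counts). *Mpo*, myeloperoxidase, had 2 to 18.2 estimated counts per library and 0.335 CPM in all (0.266 to 0.416). Its highest library was CB1R KO 9, at 1.09 CPM. *Prtn3*, proteinase 3, had at most 12.3 counts and 0.257 CPM in all (0.198 to 0.329), and 3 libraries at 0. *Prtn3* and *Elane* are neighbours on chromosome 10. The estimates for *Prtn3* were not whole numbers in 10 of 13 libraries, and those for *Elane* in 0 of 13. The reason was not tested.

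A difference between groups was not detectable at this depth for any primary granule gene. For *Mpo*, control, WT bleomycin and CB1R KO libraries averaged 0.383 ± 0.157, 0.247 ± 0.154 and 0.499 ± 0.409 CPM (SD, n = 4, 5 and 4). The lowest p for *Elane*, *Mpo* and *Prtn3* in the 3 comparisons was 0.214 (two-sided exact permutation test, *Mpo* in WT bleomycin against control). The other primary granule genes listed were as low: 0 of 4 (*Ctsg*, *Prss57*, *Ms4a3* and *Bpi*) passed the count filter. *Ctsg*, cathepsin G, had 8 counts over all libraries, and *Bpi* had 0 in every library of the series. The summed level of these 4 genes was 0 to 0.451 CPM in controls, 0.125 to 0.443 in WT bleomycin and 0.121 to 0.425 in CB1R KO lungs.

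Whether members moved together across mice of the same group was looked at pair by pair. Over the 36 pairs of members, deviations from the group means of log2 CPM were correlated over 13 libraries, with p-values from permutations within groups. No pair passed adjustment: the lowest adjusted p was 0.185, for *Ngp* and *Elane* (Pearson r = 0.83, permutation p = 0.00515, and Spearman rho = 0.71, permutation p = 0.0112, adjusted p = 0.403). Without control 3 and CB1R KO 9, the libraries farthest out for *Ngp*, r was 0.64. *Ngp* and *Camp* had r = 0.74 (permutation p = 0.0244, adjusted p = 0.381) and rho = 0.49 (permutation p = 0.138, adjusted p = 0.615), and r = 0.49 without the same libraries. *Csf3r* and *Retnlg*, the most abundant members, had r = 0.63 (permutation p = 0.183, adjusted p = 0.531) and rho = 0.42 (permutation p = 0.292, adjusted p = 0.753), and r = 0.39 without controls 3 and 26. The ratio of *Csf3r* to *Retnlg* in TPM was 0.387 to 0.775 in controls, 0.215 to 0.318 in WT bleomycin and 0.257 to 0.743 in CB1R KO libraries, a description chosen after the values were seen.

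The genes whose deviations were most like those of *Csf3r* were *S100a8* (r = 0.97), *S100a9* (r = 0.97) and *Cxcr2* (r = 0.97), over 13 libraries that share their depth and scaling. *S100a8* and *S100a9* encode the subunits of calprotectin, the main cytosolic protein pair of neutrophils, and *Cxcr2* is their chemokine receptor. All 3 had the same high controls: *S100a8* was at 120 and 115 CPM in controls 3 and 26 and at 22.5 and 20.8 in controls 21 and 24. In WT bleomycin it was at 11.4 to 26.4 CPM, and in CB1R KO bleomycin at 17.5 to 38.6 CPM. The nearest genes of *Il1r2* were *Orm1* (r = 0.96), *Ndufab1* (0.90) and *Ndufv2* (0.87), and those of *Trem1* were *A2ml1* (0.93), *Olig3* (0.90) and *Kcne3* (0.88). For *Retnlg* they were *Lhcgr*, *Tlr13* and *B430306N03Rik* (0.93, 0.93 and 0.92), and for *Ngp* they were *Acaca*, *Pskh1* and *Lipe* (0.95, 0.91 and 0.86). Picking the nearest of 15315 genes over 13 libraries yields high r by the search alone. These values are a description without a p-value.

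**Figure D3:**
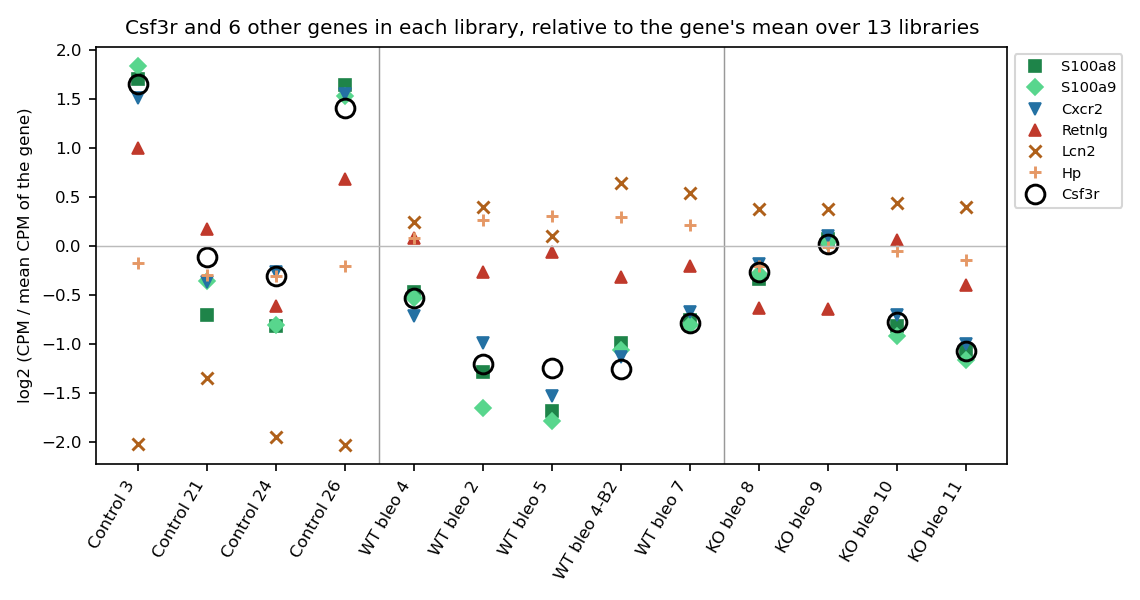
Log2 of CPM over the gene's own mean (vertical axis) in each of the 13 libraries (horizontal axis) for *Csf3r* (rings), its 3 nearest genes, *Retnlg*, *Lcn2* and *Hp*. *Csf3r*, *S100a8*, *S100a9* and *Cxcr2* lie together in every library and are highest in controls 3 and 26, whereas *Lcn2* is lowest in the 4 controls.

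Of the mature neutrophil genes other than the members, some were lower and most did not pass the test in CB1R KO lungs. Of 23 listed, 22 were in the table and 16 were tested. In WT bleomycin against control 8 of 16 were lower and 0 higher, beside 23.9% and 25.0% of all genes, with a median log2 fold change of -0.92. *S100a8* fell by 1.90 and *S100a9* by 2.06 on the log2 scale (adjusted p = 0.00441 and 0.00239). *Hdc*, which makes histamine, was the third gene of the list by level and gave 0.30 (adjusted p = 0.109, and 0.00576 at the lowest with 1 library left out, being called without control 3 or WT 7). In CB1R KO bleomycin against control 5 of 16 were lower, among them *S100a8*, *S100a9*, *Cxcr2* and *Trem3* (named after their values were seen), and 1 was higher (*Hdc*, 0.71, adjusted p = 0.00292), beside 16.3% and 19.0% of all genes, with a median of -0.73. The count of calls depended on the high controls: 6 genes in CB1R KO against control became 3 without control 3 and 2 without control 26, and also 2 without CB1R KO 10 and 3 without CB1R KO 11. The highest count with 1 library left out was 8. Between CB1R KO and WT bleomycin 0 of 16 were called (0.359% of all genes higher, 0.620% lower), with a median of 0.42. DESeq2 called 3 there on the 2 groups (*Cxcr1*, *Hdc* and *Slfn4*) and 1 on all libraries (*Cxcr1*). EdgeR called 1 without control 3 and 2 without CB1R KO 10. *S100a8* in CB1R KO against control was not called in 7 of the 13 fits that leave out 1 library (controls 3 and 26, WT 4-B2 and 7, and CB1R KO 8, 10 and 11), where its highest adjusted p was 0.139. *S100a9* was not called in 4 of them (controls 3 and 26 and CB1R KO 10 and 11), with a highest adjusted p of 0.119. *Cxcr2* there was lost without the same 4 libraries (up to 0.0795), and *Trem3* without controls 3 or 26 or CB1R KO 10 (up to 0.0558). *Ly6g*, which defines mouse neutrophils in cell sorting, had 55 counts over all libraries (0.225 CPM, 95% exact Poisson interval 0.169 to 0.292) and was not tested.

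Genes of specific and gelatinase granules were divided in WT bleomycin. Of 12 listed, 10 were tested. In WT bleomycin 6 were higher than control, beside 25.0% of all genes, and 1 was lower, *Mmp9*, the gelatinase of the granules so named. In CB1R KO bleomycin 3 were higher, beside 19.0% of all genes, and *Mmp9* again lower. *Lcn2*, lipocalin 2, rose by 2.21 on the log2 scale in WT and by 2.20 in CB1R KO lungs (adjusted p = 8.31e-08 and 3.28e-07), and *Hp*, haptoglobin, rose by 0.48 in WT bleomycin (adjusted p = 4.11e-05). In edgeR on all libraries *Hp* was the 1 gene of the list called between CB1R KO and WT bleomycin, with a log2 difference of -0.34 (adjusted p = 0.0314). DESeq2 on the 2 groups called 4 (*Adam8*, *Hp*, *Ltf* and *Mmp8*) and DESeq2 on all libraries 1. The *Hp* call was lost in 7 of the 13 fits without 1 library (WT 2, 5, 4-B2 and 7, and CB1R KO 8, 9 and 11), up to an adjusted p of 0.123. *Pglyrp1*, a peptidoglycan-binding protein, gave -0.20 in WT bleomycin (adjusted p = 0.448). *Lcn2* and *Hp* are also made by lung epithelium and macrophages, and the list's medians were 0.71 and 0.48 in WT and CB1R KO lungs against control.

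Most ligands and attractants of neutrophils were higher in WT bleomycin, and most did not pass the test in CB1R KO bleomycin. Between CB1R KO and WT bleomycin 0 of 13 were called in edgeR on all libraries, with a median of -0.17. Of all genes 0.359% were called higher and 0.620% lower there. *Il6* was called there by both DESeq2 fits, by edgeR on 2 groups and by edgeR without control 26. Of the 16 listed, 13 were tested, and in WT bleomycin 9 were higher than control and 1 was lower, beside 25.0% and 23.9% of all genes, with a median of 0.54. Of the 3 named by level, *Cxcl12*, a chemokine that retains neutrophils in marrow, rose by 0.47 (adjusted p = 0.0419, up to 0.129 with 1 library left out, and over the threshold without control 3, 24 or 26 or WT 4, 2 or 5, but 1.09 with limma on log2 TPM at a pseudocount of 1), *Alox5ap* of leukotriene synthesis rose by 0.54 (0.000926), and *Cxcr4*, the receptor of *Cxcl12*, fell by 0.79 (0.000158). In CB1R KO bleomycin 4 were higher (*Cxcl1*, *Il6*, *Alox5ap* and *C5ar1*) and 1, *Cxcr4*, was lower than control, beside 19.0% and 16.3% of all genes. *Alox5ap* and *C5ar1* were not called there without control 21 or 24 or CB1R KO 10, with highest adjusted p of 0.0659 and 0.0566, nor *Cxcl1* without control 3 or 21 or CB1R KO 8 (up to 0.0615). *Csf3*, the ligand of *Csf3r*, did not pass the count filter and had 7 counts in the 4 controls, 46 in the 5 WT bleomycin and 14 in the 4 CB1R KO libraries. These are 0.108 (95% exact Poisson interval 0.0434 to 0.222), 0.584 (0.427 to 0.779) and 0.138 (0.0755 to 0.232) CPM, with no test between mice. The values are pooled over libraries, and their intervals cover counting error only. The pooled CB1R KO value is weighted toward the deepest library. Single libraries had 0 to 4 unscaled counts in controls, 3 to 14 in WT bleomycin and 0 to 9 in CB1R KO bleomycin. These ranges overlapped.

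All 14 listed partners of *Il1r2* and *Trem1* were tested. In WT bleomycin 6 were higher and 3 lower than control, beside 25.0% and 23.9% of all genes, and in CB1R KO bleomycin 5 were higher and 2 lower, beside 19.0% and 16.3%, with medians of 0.24 and 0.22. The shares that were lower are near those of all genes. *Tyrobp*, the adaptor of *Trem1* and *Trem2*, rose by 0.86 and 0.75 (adjusted p = 3.5e-05 and 0.000344). *Trem2*, a receptor of macrophages, rose by 3.24 in both (adjusted p = 1.96e-07 and 7.1e-07). *Il1b*, a ligand that *Il1r2* binds, gave -0.12 and -0.13 (adjusted p = 0.773 and 0.791). Without control 3 both turned to 0.46 (adjusted p = 0.0862 and 0.123), and with limma at a pseudocount of 1 they were 0.15 and 0.19. Between CB1R KO and WT bleomycin 0 of the 14 partners were called, beside 0.359% of all genes higher and 0.620% lower. *Il1r1* was called there by both DESeq2 fits and by edgeR without CB1R KO 10.

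Of the 8 granulocyte transcription factors, 3 were higher in WT bleomycin (*Cebpb*, *Spi1* and *Runx1*) and 2 in CB1R KO bleomycin (*Spi1* and *Irf8*) against control, beside 25.0% and 19.0% of all genes, with 0 lower and medians of 0.23 and 0.17. *Irf8* was not called without control 21, 24 or 26 or CB1R KO 10 or 11 (up to an adjusted p of 0.105). Between CB1R KO and WT bleomycin 0 of 8 were called, beside 0.359% of all genes higher and 0.620% lower. *Runx1* was called there by both DESeq2 fits and by edgeR without WT 4 or CB1R KO 10. *Cebpb* rose by 0.79 in WT (adjusted p = 0.00882) and gave 0.10 in CB1R KO lungs (adjusted p = 0.764, and -0.15 without CB1R KO 11), whereas *Cebpa* gave -0.10 in WT (called without WT 5, adjusted p = 0.0474) and *Cebpd* 0.26 and -0.08 (0.21 in CB1R KO lungs without control 26), and these 3 values were not called with all libraries. Of 9 genes that process or inhibit granule proteases, 7 were tested, with 4 higher and 1 lower in WT (25.0% and 23.9% of all genes) and 3 higher in CB1R KO bleomycin (19.0% of all genes), and medians of 0.69 and 0.55. *Ctsc*, which activates elastase, proteinase 3 and cathepsin G, rose by 0.69 and 0.73 (adjusted p = 3.89e-05 and 7.59e-05). *Serpina3n*, a protease inhibitor, rose by 2.52 and 1.51 and was lower in CB1R KO than in WT bleomycin (log2 difference -1.003, adjusted p = 0.0215, up to 0.0801 and not called without WT 5 or CB1R KO 8, 9 or 11), and *Serpinb6a* gave 0.09 in both. Of the 7 tested, 0 were called higher and 2 lower in CB1R KO than in WT bleomycin, beside 0.359% and 0.620% of all genes. That count was 0 to 2 over the alternatives.

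Of 10 relatives of the members, 6 were tested, with 5 higher and 1 lower in WT (25.0% and 23.9% of all genes) and 4 higher in CB1R KO bleomycin (19.0% of all genes), and medians of 0.80 and 0.72. *Retnla*, the macrophage and epithelial relative of *Retnlg*, rose by 3.74 and 2.01 (adjusted p = 0.000105 and 0.0113), and by 4.94 and 3.22 without control 21, which had 159 CPM while the other controls had at most 32.2. *Csf1r*, the macrophage counterpart of *Csf3r*, rose by 0.47 and 0.35 (adjusted p = 0.00114 and 0.0154, the latter 0.0503 without control 26), and *Il6st*, a receptor of the same family as *Csf3r*, rose by 0.22 in WT (adjusted p = 0.0119). *Retn*, or resistin, was the 1 relative that fell in WT bleomycin (log2 difference -1.72, adjusted p = 0.0311). Without control 3 or 26 or WT 5, 4-B2 or 7 it was not called, with a highest adjusted p of 0.111. Between CB1R KO and WT bleomycin it gave 2.25 (adjusted p = 0.0805). *Retn* was called in that comparison by DESeq2 on all libraries and on the 2 groups, and by edgeR without CB1R KO 10.

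**Figure D4:**
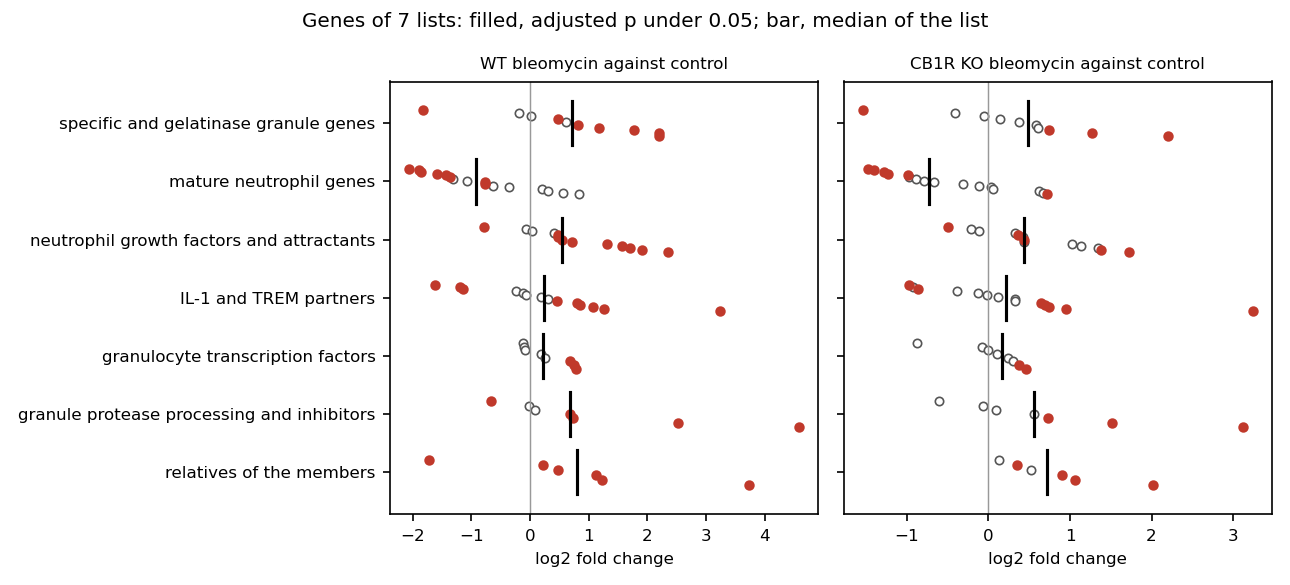
Log2 fold change (horizontal axis) of each tested gene in 7 lists for WT bleomycin (left) and CB1R KO bleomycin (right) against control, with filled circles at an adjusted p under 0.05 and black bars at the list's median. Mature neutrophil genes have medians of -0.92 and -0.73, and the other 6 lists have medians above 0.

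Markers of some other cells also differed between the groups, and their part in the results above was not tested. The shares of all genes to set beside the counts that follow are 25.0% higher and 23.9% lower in WT and 19.0% and 16.3% in CB1R KO bleomycin. Of 7 platelet and megakaryocyte genes 6 were lower in WT and 5 in CB1R KO bleomycin against control, and the summed level was 58.3 to 97.1 CPM in controls, 22.9 to 30.03 in WT and 23.3 to 33.7 in CB1R KO lungs. Of 7 red blood cell genes 5 and 4 were lower, with sums of 5454 to 6814 CPM in controls, 2432 to 3290 in WT and 2550 to 4941 in CB1R KO lungs. Of 9 genes of monocyte-derived macrophages 8 were higher in both, from 265 to 381 CPM in controls to 2221 to 2818 in WT and 1594 to 2309 in CB1R KO lungs. Of 5 genes of dividing cells 5 were higher in both, and of 7 lung tissue genes 6 were lower in WT and 2 in CB1R KO lungs. Between CB1R KO and WT bleomycin 2 of these 7 were higher and 0 lower, beside 0.359% and 0.620% of all genes. The call of *Sftpc*, among those higher, was lost in 7 of the 13 edgeR fits without 1 library (adjusted p up to 0.106).

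Of 5 monocyte markers 1 was higher and 1 lower in both bleomycin groups against control, shares near those of all genes. The libraries high in *Csf3r*, controls 3 and 26, differed in these sums. Control 3 was the highest of all 13 libraries for monocyte genes (402 CPM) and for platelet genes (97.1 CPM), whereas control 26 had 189 and 60.3 CPM, at or near the low end of the controls. The same libraries had 5454 and 6079 CPM of red blood cell genes, and the other controls 5893 and 6814. Of 8 alveolar macrophage genes 1 was higher and 1 lower in both groups, of 8 basophil and mast cell genes 5 were tested and 3 and 2 were lower, and of 6 eosinophil genes 4 were tested and 1 and 0 were lower. The eosinophil sum was 3.18 to 12.3 CPM over all libraries, and its gene *Prg3* was at 0 in all controls.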

How the data were processed

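RNA from the lower right lung lobe was sequenced as paired-end reads in 13 libraries, each taken here as 1 mouse. Per the methods, the authors quantified reads with Kallisto on the mouse reference of Ensembl 105 (GRCm39, per the labels) and summed values over protein-coding transcripts by gene symbol. The deposited tables hold estimated counts, not normalized, of which 64.8% were not whole (off by over 0.001), and TPM, scaled by the authors for transcript length and library total. Of the TPM columns, 1 named no sample of the series and was not used. The authors tested rounded counts with DESeq2.

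Estimated counts were rounded and filtered with filterByExpr, and 15315 genes entered edgeR 4.0.16 in R 4.3.3 (TMM scaling, quasi-likelihood test). The 3 groups were fitted together with no covariate, p-values were adjusted by Benjamini-Hochberg over all genes tested, and the threshold was 0.05. For log2 CPM a prior count of 2 was added. Members below the filter were compared by exact permutation of mean log2 CPM. Pairs of members used 100000 permutations within groups. The procedure was tested on simulated data. As a check for a library deposited more than once, counts were compared between libraries of the same group, and every such pair differed by more than counting noise (smallest chi-square per degree of freedom 6.33). This check cannot tell whether different libraries came from the same mouse.

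The members, lists and tests were chosen with earlier results of these data known. Named genes were the 9 members, the 3 tested genes with the highest mean TPM in each list, and for each tested member the 3 genes with the most similar deviations from group means. Other list genes are named where few were called in a list or where they did not pass the count filter, and these were chosen after their values were seen. Alternatives were RLE and upper-quartile scaling, dropping the count filter, requiring 10 counts in each library, DESeq2 1.42.0 on all libraries or 2 groups, edgeR on 2 groups, limma 3.58.1 on log2 TPM with a pseudocount of 1 or 0.1, label style as a term, lower-case labels only, CB1R KO replicate 11 thinned, and each library left out. Python 3.11.15 with pandas 2.3.3, scipy 1.17.1 and matplotlib 3.10.9 was used. A certain list gene is counted in its lists, but its own values are not reported here.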

Additional observations from a re-analysis of the deposited data

Results flagged for a closer look

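In a test of each group for an outlying library, by the gap to the nearest other value over the group's range, 2 of 27 groups of member values were flagged, where chance flags about 1 in 20. *Ngp* in control replicate 3 stood at 9.45 CPM, with 1.08 CPM in the nearest control (gap over range 0.957, above Dixon's 95% critical value for 4 samples). *Elane* in control replicate 3 stood at 0.119 CPM, which is 2 counts, with 0 in the other 3 controls (gap over range 1.0). With the other libraries tied at 0, any count gives this gap, so the flag on *Elane* carries no information and the chance rate does not hold for it. The high *Ngp* of CB1R KO replicate 9 was not flagged. The high *Csf3r* of controls 3 and 26 was not flagged either, but the test measures the gap of 1 library. It cannot flag 2 high libraries among 4.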

How the results depend on the processing

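The *Csf3r* decrease in WT bleomycin lungs held in 25 of 25 alternatives, and 0 members were called between CB1R KO and WT bleomycin in any. In WT bleomycin against control, 2 members called became 4 with DESeq2 on all libraries (*Camp* and *Retnlg* added). With DESeq2 on the 2 groups 3 were called, where the same were added and *Ngp* was given no adjusted p. Without the count filter 3 were called (*Camp* added). With at least 10 counts in every library, a filter that *Ngp* did not pass, 1 was called (*Csf3r*). The same 1 was called with limma with either pseudocount, label style as a term, or lower-case labels only. With libraries left out 1 to 3 were called. In CB1R KO bleomycin against control, 2 became 1 with edgeR on 2 groups, 0 with limma or with lower-case labels only, and were 1 to 2 with libraries left out. The cause was not tested. Directions turned for members never called in that comparison. *Il1r2* in CB1R KO against control became 0.073 with lower-case labels only. Without single libraries, the lowest and highest values in CB1R KO against control were -1.01 and 0.070 for *Il1r2*, -1.73 and 1.07 for *Ngp*, -0.68 and 0.13 for *Camp*, -0.069 and 0.58 for *Elane*, -0.26 and 0.47 for *Mpo*, and -0.81 and 0.28 for *Prtn3*. *Mpo* there became -0.14 with CB1R KO 11 thinned. In CB1R KO against WT bleomycin they were -0.25 and 0.33 for *Elane* and -0.30 and 0.57 for *Prtn3*. *Elane* there became -0.18 with lower-case labels only, and *Prtn3* -0.038 with limma at a pseudocount of 0.1 and -0.052 with CB1R KO 11 thinned. In WT bleomycin against control *Prtn3* ranged from -0.88 to 0.069. Calls among mature neutrophil genes in WT bleomycin against control went from 8 to 5 with limma and 4 with lower-case labels only, and in CB1R KO against control from 6 to 1 with limma at a pseudocount of 0.1. Over all genes, calls ranged from 5701 to 7753, 1 to 653 and 4272 to 5702 in WT against control, CB1R KO against WT and CB1R KO against control. No paired analysis was possible because the groups share no replicate numbers. Low counts limit what can be seen of *Camp* and the primary granule genes.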
